A study of Mus musculus with 10 samples.

Results

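The genes described here charge transfer RNAs with amino acids or make amino acids and folate-bound carbon units, and they were chosen by name. A list of 31 mouse genes held the cytosolic aminoacyl-tRNA synthetases, the transcription factor gene Atf4, and enzymes of serine, asparagine, proline and folate metabolism. Of these, 30 had a row among the 9690 genes of the deposited table, and Asns, which encodes asparagine synthetase, was not analysed here. The 30 genes comprised 20 synthetase genes, Atf4, 3 serine synthesis genes, 5 folate enzyme genes and Aldh18a1 for proline.

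The libraries came from unstimulated spleen cells of female C57BL/6J mice, labelled knockout or wild type for LSD1, the histone demethylase encoded by Kdm1a. They comprised 2 libraries of knockout marginal zone B cells (MZB), 3 of wild-type MZB, 3 of knockout follicular B cells (FoB) and 2 of wild-type FoB. MZB are innate-like cells at the border of the splenic white pulp, sorted as CD21-high, CD1d-positive and CD23-negative, and FoB recirculate and fill the follicles. The labels name neither the means of deletion nor the age of the mice, and do not say whether each library had its own animal. P-values therefore measure only library-to-library spread, part of which may be technical.

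Synthetases join amino acids to their transfer RNAs before the ribosome can use them. Several of them sit together in the multisynthetase complex, held by the scaffold proteins Aimp1, Aimp2 and Eef1e1. ATF4 is made when the initiation factor eIF2 is phosphorylated, and it is known to activate synthetase, serine and folate enzyme genes, so its protein does not simply follow its mRNA. B cells that are stimulated to divide or secrete antibody need these enzymes for protein and nucleotide synthesis, and MZB are known for turning into plasma cells quickly.

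Values were mRNA molecules per cell as the authors gave them. A library's total mRNA per cell moves every gene in it, so each difference is given on 2 scales: per cell, and rescaled, where each library was brought to a common level and a difference is relative to the other genes. The median per-cell log2 difference over all genes was 0.32 for knockout minus wild-type MZB, −0.05 for knockout minus wild-type FoB, 0.78 for wild-type MZB minus FoB and 1.13 for knockout MZB minus FoB. Whole reads worked back from the values numbered 4161051 to 6711847 per library and 42 to 4210 per member and library. In these bulk samples, fewer cells expressing a gene and less RNA in each cell cannot be told apart.

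Kdm1a mRNA was lower in both knockouts, but still present. It stood at 5.38 and 5.94 molecules per cell in knockout MZB, against 6.37, 8.37 and 7.90 in wild-type MZB, and at 2.04, 2.36 and 1.93 in knockout FoB, against 5.58 and 4.34 in wild-type FoB. Knockout and wild-type libraries did not overlap in either cell type. On the rescaled values the log2 difference was −0.69 in MZB and −1.10 in FoB (limma, Benjamini-Hochberg adjusted p = 0.000463 and 2.5e-05). Per cell it was −0.39 in MZB, which did not pass, and −1.12 in FoB (limma adjusted p = 0.118 and 4.31e-05). No source used here names the deleted exons, and reads from the rest of the gene may remain.

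Summed markers of the 2 cell types followed the labels. The lists hold Cr2 for CD21, Cd1d1 and Fcer2a, whose proteins were used in the sort, so these genes are no separate check. The 7 MZB markers, which include Cr2 and Cd1d1, summed to 442 to 485 molecules per cell in knockout MZB and 404 to 486 in wild-type MZB, and to 47.4 to 57.2 in knockout FoB and 44.2 to 61.2 in wild-type FoB. The 5 FoB markers, which include Fcer2a for CD23, summed to 127 to 144 in knockout MZB, 64.2 to 94.1 in wild-type MZB, 187 to 225 in knockout FoB and 180.2 to 235 in wild-type FoB. Between wild-type MZB and FoB, 6 of 7 MZB markers were higher per cell and Rapgef4 did not pass (limma adjusted p = 0.691). That count is near the share of all genes, of which 84.2% were higher per cell and 1.67% lower. Of the FoB markers, 4 of 5 were lower while Cr1l was higher, by 0.73 (limma adjusted p = 0.000316). In their sums of FoB markers, knockout MZB libraries lay above wild-type MZB libraries. In that comparison, 0 of 7 MZB markers passed the test per cell and 2 of 7 fell on the rescaled values. The shares of all genes passing there were 14.0% per cell and 5.26% rescaled, in either direction.

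Several promoters of these genes carry the short element that ATF4 binds together with C/EBP proteins. RefSeq promoters on GRCm38.p6, from 250 bases before to 50 bases after the start, were found for 24 of the 31 listed genes. The letters TGATGNAA, searched on both strands, occurred in 6 of these 24 promoters (25.0%), those of Aars, Asns, Gars, Iars, Tars and Yars, against 2.73% of the promoters of 7753 genes of the table and 4.51% of 27025 promoters in all. A match is a description of the letters and not a binding site. For each measured gene, the 30 bases around 1 match are shown because Atf4 is itself among the members, with the matched letters in capitals, on the strand that reads TGATG:
Yars, chr4:129189895-129189924 (+): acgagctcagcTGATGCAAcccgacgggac
Gars, chr6:55037960-55037989 (−): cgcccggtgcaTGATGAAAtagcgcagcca
Aars, chr8:111033840-111033869 (−): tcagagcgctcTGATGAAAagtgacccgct
Iars, chr13:49682126-49682155 (−): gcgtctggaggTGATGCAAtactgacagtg
Tars, chr15:11399655-11399684 (+): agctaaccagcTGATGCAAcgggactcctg

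The E-box CACGTG, a site of Myc and related factors, occurred in 5 of the 24 promoters (20.8%), against 12.4% of those of the table's genes. Aars, Iars and Tars held both kinds of letters, and Farsb and Aldh18a1 held the E-box without the ATF4 element. In these 3 promoters the E-box windows did not overlap the windows printed above.

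All 30 genes were expressed in all 4 groups, and the highest and lowest places by level went to much the same genes in each. Middle places moved more between libraries, as for Dars between 5 and 18 and Mars between 8 and 19. Levels between genes are compared on the per-cell scale, where the reads behind a molecule grew with the annotated exon length of the gene (Spearman's rho of 0.818 across 9255 genes), so that values act as levels per length. Vars, the valine enzyme gene, was the most abundant member in all 10 libraries, at 43.0 and 49.9 molecules per cell in knockout MZB, 27.3, 37.5 and 35.7 in wild-type MZB, 23.0, 24.8 and 17.9 in knockout FoB, and 28.0 and 21.4 in wild-type FoB. Atf4 came second in all 10, at 33.4 and 33.9 in knockout MZB, 19.9, 25.7 and 27.9 in wild-type MZB, 17.5, 19.1 and 14.4 in knockout FoB, and 19.7 and 16.1 in wild-type FoB. Vars and Atf4 thus stood apart from the rest of the list, since the median synthetase had 9.89, 8.16, 4.28 and 4.58 molecules per cell in knockout MZB, wild-type MZB, knockout FoB and wild-type FoB.

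Below Atf4, Kars (lysine), Nars (asparagine) and Qars (glutamine) ranked between the third and the seventh place in every library. At the low end, Cars (cysteine) was the lowest synthetase in MZB, at 4.20 ± 0.306 in knockout and 3.54 ± 0.357 in wild-type MZB (SD, n = 2 and 3). Yars (tyrosine) was the lowest in FoB, at 2.40 ± 0.364 in knockout and 2.61 ± 0.432 in wild-type FoB (SD, n = 3 and 2). Cars was next there, at 2.57 ± 0.322 and 3.09 ± 0.773, within that spread. Psph, Mthfd2, Psat1 and Shmt1, of serine and folate metabolism, took the lowest places in the list, between 26 and 30.

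**Figure D1:**
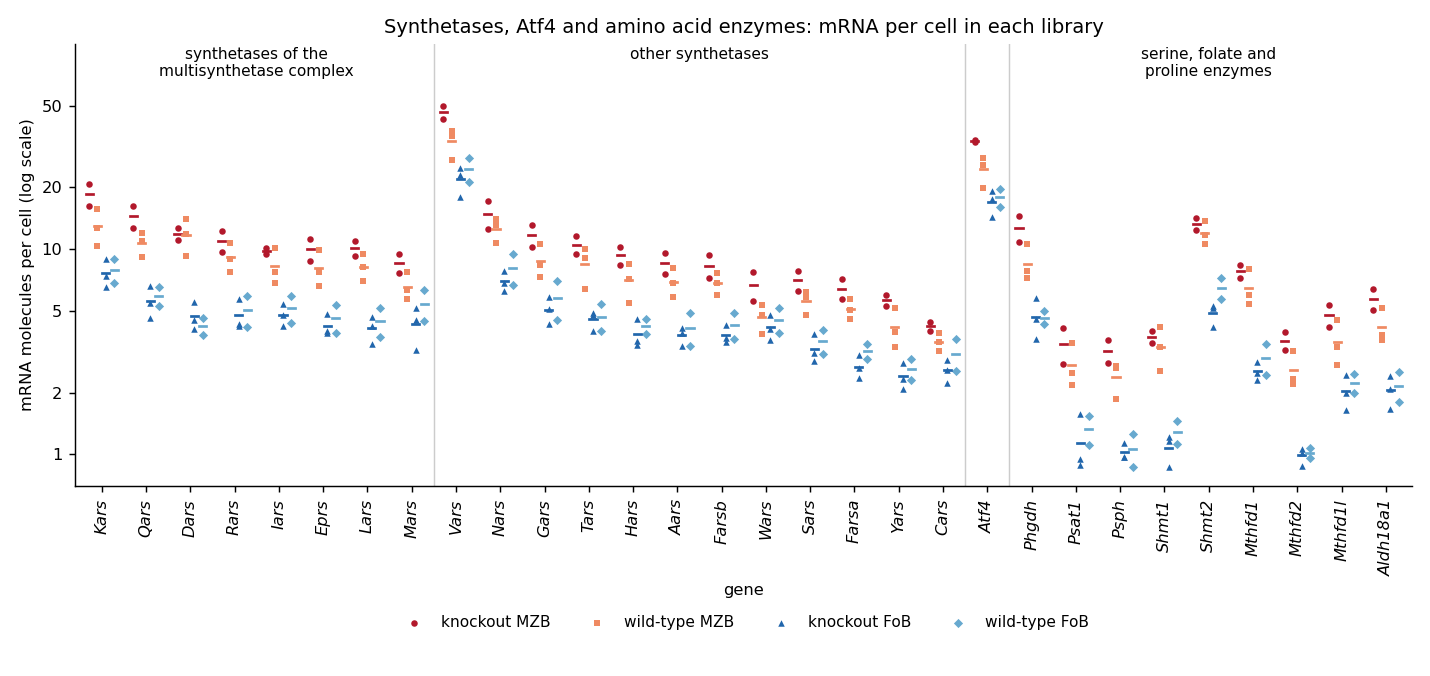
Each point is 1 library, with mRNA molecules per cell on a logarithmic axis and the genes grouped by role along the x axis; short lines are group means of knockout MZB (n = 2), wild-type MZB (n = 3), knockout FoB (n = 3) and wild-type FoB (n = 2). Vars and Atf4 lie above the other genes in each group, and FoB points lie lowest for most genes.

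Some of the genes encode partners, and their mRNA ratio needs no scaling between libraries. Farsa and Farsb encode the α and β subunits of the phenylalanine enzyme, and Farsa mRNA stood at 0.778 ± 0.0208 of Farsb mRNA in knockout MZB, 0.756 ± 0.0885 in wild-type MZB, 0.699 ± 0.0512 in knockout FoB and 0.755 ± 0.0649 in wild-type FoB (SD, n = 2, 3, 3 and 2). The ranges of the groups overlapped, except that knockout MZB, at 0.764 to 0.793, lay above knockout FoB, at 0.642 to 0.742. The ratio of Shmt2, the mitochondrial serine hydroxymethyltransferase, to Shmt1, its cytosolic counterpart, was 3.54 and 3.56 in knockout MZB, 4.12, 3.29 and 3.53 in wild-type MZB, 4.58, 4.29 and 4.82 in knockout FoB, and 4.95 and 5.09 in wild-type FoB. All FoB libraries lay above all MZB libraries in this ratio.

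Marginal zone B cells held more synthetase mRNA per cell than follicular B cells, in step with their larger total of mRNA. The 20 synthetases summed to 210.2 and 258 molecules per cell in knockout MZB, 152, 212 and 185 in wild-type MZB, 104, 121 and 91.2 in knockout FoB, and 132 and 98.8 in wild-type FoB. Every MZB library lay above every FoB library. As a share of all mRNA in the table, the same sum was 0.206% ± 0.00997 in knockout MZB, 0.205% ± 0.00612 in wild-type MZB, 0.214% ± 0.00409 in knockout FoB and 0.226% ± 0.0113 in wild-type FoB (SD, n = 2, 3, 3 and 2). The shares of knockout MZB and knockout FoB libraries overlapped, at 0.199% to 0.213% and 0.209% to 0.217%. Those of wild-type MZB, at 0.201% to 0.212%, lay below those of wild-type FoB, at 0.218% to 0.234%.

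**Figure D2:**
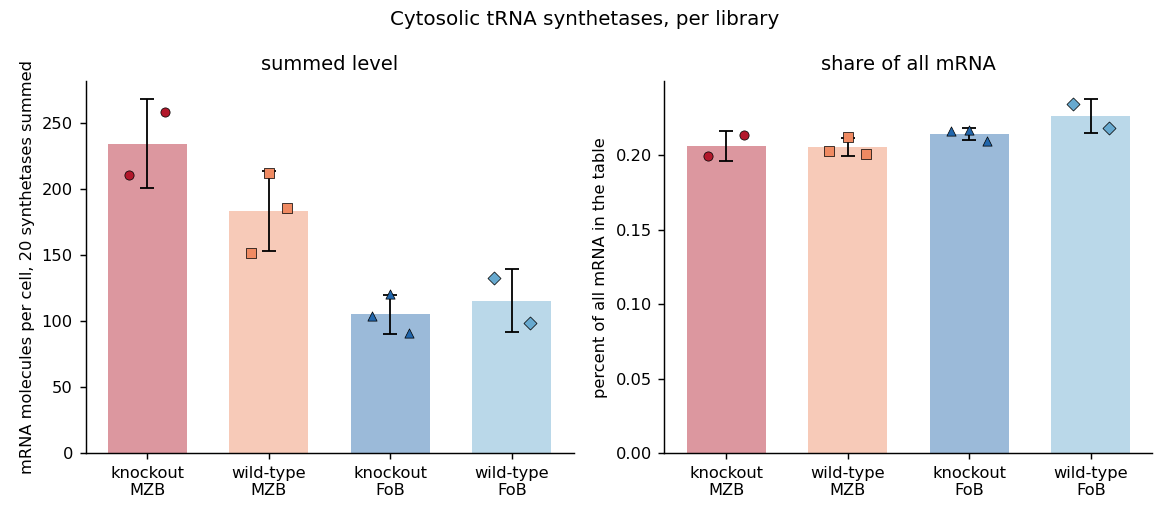
Left, summed mRNA molecules per cell of the 20 synthetases; right, that sum as a percent of all mRNA in the table. Bars are group means, error bars SD and points single libraries; the MZB bars stand above the FoB bars on the left, and the 4 bars are of similar height on the right.

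In wild-type cells, 27 of the 30 genes were higher per cell in MZB than in FoB and 0 were lower. Most genes did the same, since 85.9% of all 9690 genes passed, 84.2% higher and 1.67% lower (limma on log2(value + 0.3), Benjamini-Hochberg adjusted p under 0.05 over all genes). The members' median was 0.70, beside 0.78 for all genes. Wars, Cars and Mars, for tryptophan, cysteine and methionine, did not pass. Without wild-type FoB library 2, 16 of the 30 passed, and 64.0% of all genes. A library's total moves all its genes together, while the test treats genes as if their errors were separate, so the per-cell p-values may be too small.

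Dars, for aspartate, had the largest per-cell difference among the members. It stood at 9.29, 14.0 and 11.9 molecules per cell in wild-type MZB, against 4.60 and 3.82 in wild-type FoB, with no overlap. The log2 difference was 1.40 ± 0.20 (SE; limma adjusted p = 1.57e-09). Wars was at the other end, at 3.88, 5.34 and 4.76 in wild-type MZB and 5.16 and 3.91 in wild-type FoB, groups that overlapped. Its log2 difference of 0.04 had a 95% interval of −0.35 to 0.42 (limma adjusted p = 0.851).

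After Dars, the next 4 genes by p were folate and serine enzymes. Shmt1 had 2.56, 4.17 and 3.33 molecules per cell in wild-type MZB, against 1.46 and 1.12 in wild-type FoB (log2 difference 1.18, limma adjusted p = 7.95e-08). Mthfd2, the mitochondrial dehydrogenase of folate carbon units, had 2.32, 3.19 and 2.20 in wild-type MZB, against 1.07 and 0.958 in wild-type FoB (log2 difference 1.11, limma adjusted p = 2.14e-07). Mthfd1, its trifunctional cytosolic relative, had 5.42, 7.995 and 5.97 in wild-type MZB, against 3.47 and 2.44 in wild-type FoB (log2 difference 1.06, limma adjusted p = 1.3e-06). The MZB libraries lay above the FoB libraries in all 3 of these genes. Psph, which completes serine synthesis, differed by 0.99, Psat1, which acts before it, by 0.88, and Phgdh, which opens the pathway, by 0.82. Aldh18a1, which opens proline synthesis from glutamate, differed by 0.87. Mthfd1l, the mitochondrial formate-releasing folate enzyme, differed by 0.58, below the median of the list. Shmt2, Lars (leucine) and Qars followed with 0.86, 0.85 and 0.83 (limma adjusted p for these 7 genes without Mthfd1l between 3.59e-06 and 0.000154). Vars and Atf4 passed only narrowly, with log2 differences of 0.44 each (limma adjusted p = 0.0467 and 0.0408), each was lost in 6 of 13 alternatives (limma adjusted p up to 0.395 and 0.287), and the Vars libraries overlapped.

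Relative to the other genes, some members were higher and others lower in MZB, as was so among all genes. On the rescaled values, 4 of 30 genes were higher and 7 lower in MZB than in FoB in wild-type cells, at a background of 49.9% of all genes, 25.0% higher and 24.9% lower. Among the 20 synthetases, 1 was higher and 6 were lower, with a median of −0.19 beside 0.003 for all genes. Without wild-type FoB library 1, 2 of the 30 genes were higher and 5 lower, and 35.3% of all genes passed. With library weights 4 were higher and 13 lower, and 57.9% of all genes passed. Among the 5 folate enzymes, 3 were higher and 0 were lower, with a median of 0.23.

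The 3 largest downward differences among the synthetases were those of Wars (chr12:108860030-108894175, GRCm38), Cars (chr7:143557230-143600090) and Mars (chr10:127296221-127311786). Wars had rescaled values of 3.44, 3.63 and 3.51 in wild-type MZB, against 6.48 and 6.16 in wild-type FoB (log2 difference −0.79 ± 0.09, SE; limma adjusted p = 2.29e-05). Cars had 2.83, 2.65 and 2.60 in wild-type MZB, against 4.56 and 4.02 in wild-type FoB (log2 difference −0.62, limma adjusted p = 9.27e-05). Mars had 5.05, 5.24 and 4.68 in wild-type MZB, against 7.97 and 7.01 in wild-type FoB (log2 difference −0.56, limma adjusted p = 0.00196). Wild-type MZB libraries lay below wild-type FoB libraries for each of the 3 genes. Vars had 24.2, 25.5 and 26.3 in wild-type MZB, against 35.1 and 33.7 in wild-type FoB (log2 difference −0.44, limma adjusted p = 0.00081). Atf4 had 17.7, 17.5 and 20.6 in wild-type MZB, against 24.7 and 25.5 in wild-type FoB (log2 difference −0.43, limma adjusted p = 0.00204). Groups did not overlap for either gene. Nars and Sars (serine) fell less, with log2 differences of −0.22 and −0.21 (limma adjusted p = 0.0389 and 0.0316), and each lost its call in 6 of 15 alternatives (limma adjusted p up to 0.3 and 0.157). Mars (Mars1 in current annotation) shares part of its locus with Ddit3, Wars with Wdr25 and Cars with a predicted gene, and the sources used here do not say how such reads were counted. Ddit3, the stress-response gene CHOP, had a rescaled log2 difference of −0.11 in this comparison and did not pass (limma adjusted p = 0.426).

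Dars (chr1:128363707-128417416, GRCm38), which overlaps no annotated gene, moved the other way. Its rescaled values were 8.23, 9.53 and 8.78 in wild-type MZB, against 5.77 and 6.02 in wild-type FoB (log2 difference 0.56 ± 0.09, SE; limma adjusted p = 0.000444). The Wars to Dars ratio, which needs no scaling between libraries, was 0.418, 0.381 and 0.3998 in wild-type MZB and 1.12 and 1.02 in wild-type FoB. These 2 members have the lowest and the highest rescaled difference here, so their ratio was bound to separate these groups and is no separate evidence. Shmt1 had 2.27, 2.83 and 2.45 in wild-type MZB, against 1.83 and 1.77 in wild-type FoB (log2 difference 0.42, limma adjusted p = 0.00708). Mthfd2 was higher by 0.37 (limma adjusted p = 0.0218) and Mthfd1 by 0.23 (limma adjusted p = 0.0493). The Mthfd2 call was lost in 3 of 15 alternatives and the Mthfd1 call in 7 of 15 (limma adjusted p up to 0.147 and 0.321). Their MZB libraries lay above their FoB libraries. The other 19 genes had log2 differences between −0.25 and 0.25 and did not pass. Members of the multisynthetase complex had a median of −0.05 (1 higher and 1 lower of 8) and the 12 synthetases outside it a median of −0.21 (0 higher and 5 lower of 12). No test of that difference was made.

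**Figure D3:**
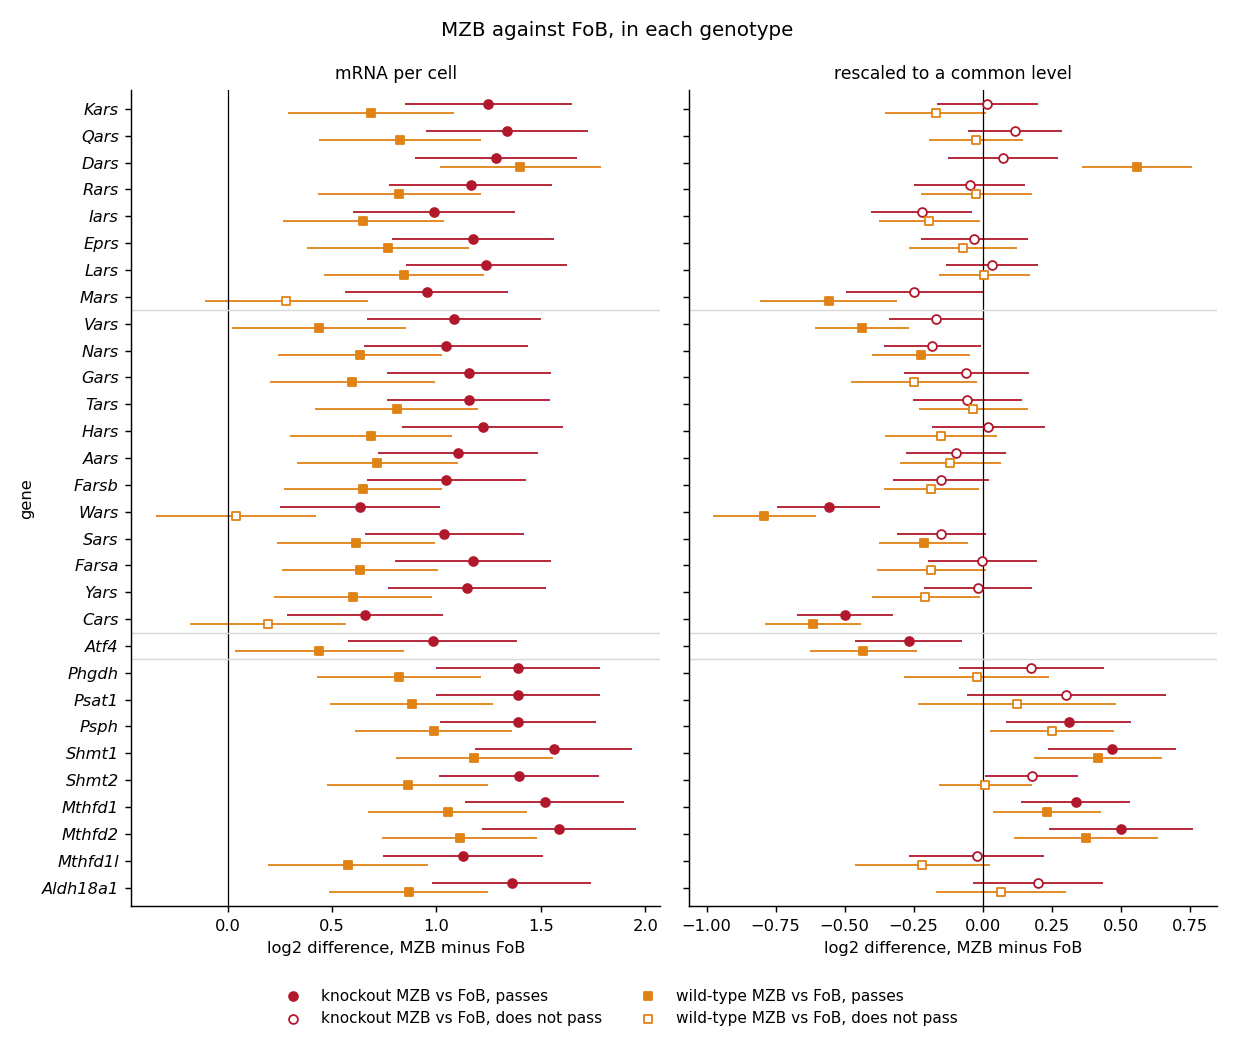
Log2 differences, MZB minus FoB, for each gene, left per cell and right rescaled, with 95% intervals from limma; circles are knockout cells, squares wild-type cells, and filled symbols passed an adjusted p of 0.05. Per cell nearly all genes lie right of 0, whereas on the rescaled values Wars and Cars lie furthest left and Shmt1 and Mthfd2 right of 0 in both genotypes.

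In knockout cells, all 30 genes were higher per cell in MZB than in FoB, at a background of 97.7% of all genes (97.3% higher and 0.444% lower). The median was 1.17, beside 1.13 for all genes. Mthfd2 had the largest difference, at 3.22 and 3.95 molecules per cell in knockout MZB, against 1.07, 1.02 and 0.880 in knockout FoB (log2 difference 1.59, limma adjusted p = 2.92e-12). The 5 folate enzymes ranged from 1.13 (Mthfd1l) to this value. Wars had the smallest difference, at 5.59 and 7.78 in knockout MZB, against 4.08, 4.80 and 3.62 in knockout FoB (log2 difference 0.64, limma adjusted p = 0.00153). Even there the libraries did not overlap.

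On the rescaled values, 4 genes were higher and 3 lower in knockout MZB than in knockout FoB, at a background of 35.2% of all genes (18.2% higher and 17.0% lower). Without knockout MZB library 2, 1 was higher and 3 were lower, and 26.5% of all genes passed. Mthfd2 and Shmt1 differed by 0.50 and 0.47 (limma adjusted p = 0.00676 and 0.00519), and Mthfd1 and Psph by 0.34 and 0.31 (limma adjusted p = 0.0129 and 0.0351). Wars had 3.62 and 4.42 in knockout MZB, against 6.01, 6.29 and 5.80 in knockout FoB (log2 difference −0.56, limma adjusted p = 0.000442). Cars had 2.58 and 2.51 in knockout MZB, against 3.79, 3.78 and 3.59 in knockout FoB (log2 difference −0.50, limma adjusted p = 0.0006). Knockout MZB libraries lay below knockout FoB libraries for both genes. Atf4 had a log2 difference of −0.27 (limma adjusted p = 0.0353). Psph and Atf4 each lost their call in 6 of 15 alternatives (limma adjusted p up to 0.227 and 0.256). Psph shares part of its locus with Cct6a. Mars did not pass, with a log2 difference of −0.25, while Ddit3 at the same locus passed with −0.45 (limma adjusted p = 0.113 and 0.00751).

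Dars did not pass between the knockout cell types. Its rescaled values were 7.15 and 7.22 in knockout MZB and 6.04, 7.26 and 7.21 in knockout FoB, groups that overlapped, and the log2 difference of 0.07 had a 95% interval of −0.13 to 0.27 (limma adjusted p = 0.561). The Wars to Dars ratio was 0.507 and 0.611 in knockout MZB and 0.995, 0.867 and 0.804 in knockout FoB. In both genotypes the FoB ratios lay above the MZB ratios, for a pair with the most opposite differences in wild-type cells.

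**Figure D4:**
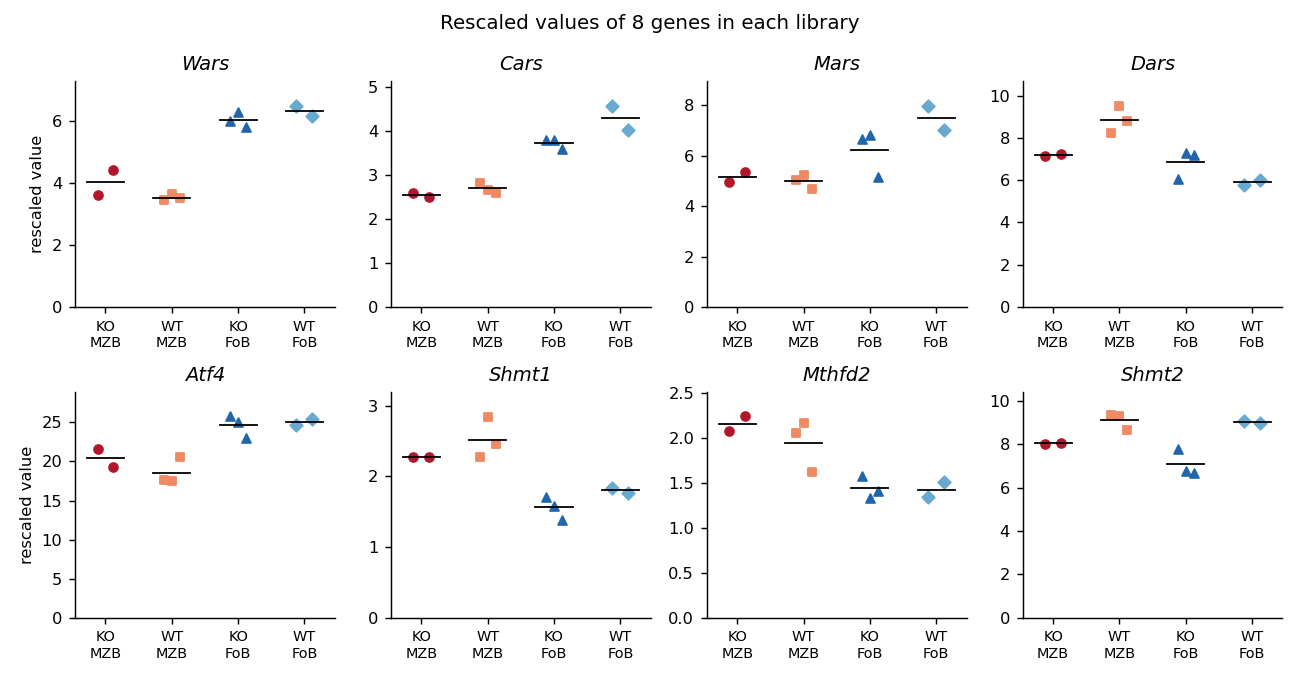
Rescaled values of 8 genes, with 1 point per library, group means as lines and axes from 0; KO is knockout and WT wild type. Wars, Cars and Atf4 lie higher in FoB, Shmt1 and Mthfd2 higher in MZB, and Dars is highest in wild-type MZB.

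Proliferation genes and Myc moved with the cell type as well. Of 6 cycling cell markers, 6 of 6 were higher in MZB than in FoB in both genotypes on both scales. Of all genes, 97.3% in knockout and 84.2% in wild-type cells were higher per cell, and 18.2% and 25.0% were higher rescaled. The 6 markers summed to 27.2 to 38.7 molecules per cell in knockout MZB and 15.5 to 25.0 in wild-type MZB. In FoB they summed to 1.03 to 1.39 in knockout and 1.96 to 2.08 in wild-type cells. Myc, a transcription factor that promotes growth and is known to act on synthetase and folate genes, had rescaled values of 13.4 and 14.9 in knockout MZB, 14.2, 15.5 and 13.6 in wild-type MZB, 7.29, 6.80 and 6.68 in knockout FoB and 7.34 and 6.36 in wild-type FoB. The rescaled log2 difference was 0.997 in knockout and 1.05 in wild-type cells (limma adjusted p = 5.89e-06 and 2.58e-06). Their part in the differences of the members was not tested. Of 6 listed plasma cell markers only Xbp1 and Irf4 were in the table, with sums of 38.6 to 45.0, 30.7 to 38.5, 13.4 to 17.2 and 13.6 to 18.2 molecules per cell in knockout MZB, wild-type MZB, knockout FoB and wild-type FoB.

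Few of the genes passed between knockout and wild-type cells. In MZB, 1 of 30 genes passed per cell, at a background of 14.0% of all genes (13.3% higher and 0.702% lower). That gene was Phgdh (chr3:98313171-98339969, GRCm38), with 10.8 and 14.5 molecules per cell in knockout MZB, against 7.21, 10.55 and 7.79 in wild-type MZB, without overlap (log2 difference 0.56 ± 0.20, SE; limma adjusted p = 0.046). The call was lost in 7 of 13 alternatives, among them a pseudocount of 0.1, the compared groups alone, library weights, and leaving out knockout library 2, wild-type library 1 or wild-type library 3 (limma adjusted p between 0.00761 and 0.613 over all alternatives). On the rescaled values Phgdh had a log2 difference of 0.23, with overlapping libraries and a limma adjusted p of 0.264.

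Without wild-type library 2, 10 of the 30 passed, and 28.8% of all genes. The other 29 genes had per-cell differences between 0.03 and 0.52 in MZB, and the members' median of 0.32 equalled that of all genes. The genes next to passing were Kars, at 16.3 and 20.9 in knockout MZB against 10.4, 15.7 and 12.8 in wild-type MZB (log2 difference 0.52, limma adjusted p = 0.0622), and Wars (log2 difference 0.49, limma adjusted p = 0.0683). Atf4 had a log2 difference of 0.47 and Vars of 0.48 (limma adjusted p = 0.0908 and 0.0904). Knockout libraries lay above wild-type libraries for 11 of the 30 genes and below them for 0, whereas over all genes 56.9% had knockout libraries above and 2.07% had them below.

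After rescaling, 0 of 30 genes passed in MZB, at a background of 5.26% of all genes, and the median was 0.002, beside 0.02 for all genes. At an unadjusted p under 0.05 there were 3 of the 30 genes, Dars, Kars and Shmt2, beside 2218 of all 9690 genes. Dars had 7.15 and 7.22 in knockout MZB, against 8.23, 9.53 and 8.78 in wild-type MZB, with no overlap (log2 difference −0.29, 95% interval −0.49 to −0.09, limma adjusted p = 0.0923). Dars passed with library weights and with limma voom on the recovered reads (limma adjusted p = 0.0471 at most). Per cell, Dars had 11.03 and 12.7 in knockout MZB and 9.29, 14.0 and 11.9 in wild-type MZB, which overlapped. Shmt2 had rescaled values of 8.03 and 8.08 in knockout MZB, against 9.35, 9.32 and 8.65 in wild-type MZB (log2 difference −0.17, limma adjusted p = 0.211). Wide intervals limit what these 0 calls say: the 95% intervals of the 30 genes reached from −0.49 to 0.50.

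Other markers moved with the knockout in MZB. The 6 cycling cell markers all rose per cell in knockout MZB, and 0 of 6 passed on the rescaled values. Of the FoB markers, 3 of 5 rose on both scales. Over all genes, 13.3% rose per cell in this comparison, and 5.26% passed on the rescaled values in either direction. Of 6 macrophage and monocyte markers, 3 were in the table (Itgam, Cd68 and Ly6c2), with sums of 7.60 to 10.4 molecules per cell in knockout MZB and 2.65 to 4.43 in wild-type MZB. Of 4 dendritic cell markers 2 were in the table (Flt3 and Cst3), with sums of 19.6 to 26.4 in knockout MZB and 10.6 to 13.9 in wild-type MZB. Lck, from 6 T cell markers, had 7.39 to 8.09 in knockout MZB and 3.80 to 4.54 in wild-type MZB. Itgb3, from 4 erythroid and platelet markers, had 2.10 to 2.40 in knockout MZB and 0.869 to 1.06 in wild-type MZB. None of 3 NK cell and 3 neutrophil markers was among the genes analysed here (0 of 3 in each list), nor were Cd3e, Lyz2 and Csf1r. The part of these markers in the differences of the members was not tested.

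In FoB, 0 of 30 genes passed between knockout and wild type on either scale, at backgrounds of 0.712% per cell and 0.588% rescaled. The medians were −0.11 and −0.06, beside −0.05 and −0.01 for all genes. At an unadjusted p under 0.05 there were 0 of the 30 genes per cell and 4 rescaled, beside 373 and 1414 of all 9690 genes. With limma voom on the recovered reads there were 0 adjusted calls.

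Shmt2 (chr10:127517123-127522444, GRCm38), which shares part of its locus with Ndufa4l2, had the smallest p in FoB on both scales. It stood at 5.30, 5.19 and 4.18 molecules per cell in knockout FoB, against 7.24 and 5.72 in wild-type FoB, and at rescaled values of 7.81, 6.80 and 6.69 in knockout FoB, against 9.08 and 9.01 in wild-type FoB. Knockout libraries lay below wild-type libraries on both scales. The rescaled log2 difference was −0.34 (95% interval −0.51 to −0.17) with a limma adjusted p of 0.0931, and it passed without knockout library 1 (limma adjusted p = 0.0334). Cars, Mars and Farsa had rescaled log2 differences of −0.19, −0.27 and −0.19, and Dars of 0.20 (limma adjusted p between 0.315 and 0.354). The Dars libraries stood at 6.04, 7.26 and 7.21 in knockout FoB and 5.77 and 6.02 in wild-type FoB, without overlap. The 3 macrophage and monocyte markers summed to 3.54 to 4.11 molecules per cell in knockout FoB and 1.12 to 1.92 in wild-type FoB. Sums of the 2 dendritic cell markers overlapped, at 10.3 to 15.48 in knockout and 10.05 to 12.63 in wild-type FoB. Of these 2, Flt3 rose per cell, by 0.88 (limma adjusted p = 0.00273). Lck overlapped, at 2.70 to 4.13 in knockout and 2.75 to 3.31 in wild-type FoB. Itgb3 was lower in knockout FoB, at 1.29 to 1.55 against 1.575 to 1.91. The 6 cycling cell markers summed to 1.03 to 1.39 in knockout FoB and 1.96 to 2.08 in wild-type FoB, with 6 of 6 log2 differences negative and 0 passing. The part of these markers in the differences of the members was not tested.

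**Figure D5:**
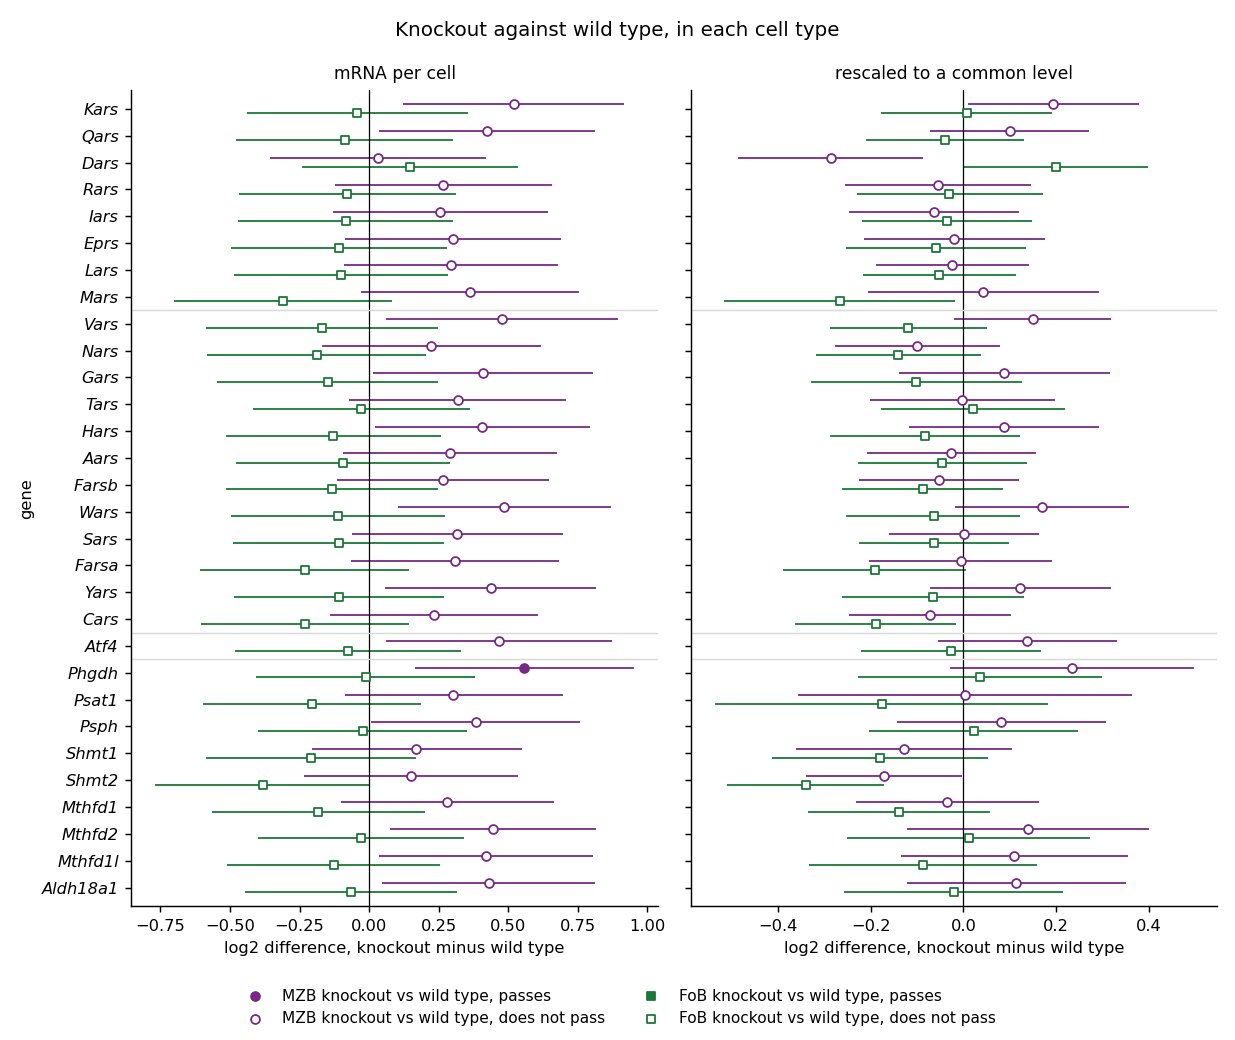
Log2 differences, knockout minus wild type, for each gene, left per cell and right rescaled, with 95% intervals from limma; circles are MZB, squares FoB, and filled symbols passed an adjusted p of 0.05. Phgdh in MZB per cell is the only filled symbol, and Dars lies left of 0 in MZB and right of 0 in FoB on the rescaled values.

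Whether the knockout acted differently in the 2 cell types was tested as the difference between the knockout effects, MZB minus FoB. None of the 30 genes passed on either scale (0 of 30 per cell, background 2.34%; 0 of 30 rescaled, background 0.31%). At an unadjusted p under 0.05, 8 of the 30 genes were found per cell and 2 rescaled, beside 2666 and 2207 of all 9690 genes. Mars had the smallest p per cell (difference 0.67, 95% interval 0.12 to 1.23, limma adjusted p = 0.133). Dars had the smallest p on the rescaled values (difference −0.49, 95% interval −0.77 to −0.21, limma adjusted p = 0.0913), and it passed with limma voom on the recovered reads (limma adjusted p = 0.0335).

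Genes with and without the ATF4 element in their promoter are set side by side as a description. On the rescaled values, wild-type MZB against wild-type FoB, the 5 measured genes with it had a median log2 difference of −0.19 (−0.25 to −0.03), and the 18 with a searched promoter and no match −0.02 (−0.56 to 0.56). Between knockout and wild-type MZB these medians were −0.002 and 0.02, and between knockout and wild-type FoB −0.05 and −0.06. The 5 genes with the element are all synthetases, whereas the 18 also include other enzymes, such as Aldh18a1. Between wild-type cell types, all 20 synthetases together also had a rescaled median of −0.19. Whether the element or the kind of gene goes with the difference was not tested. The 3 serine enzymes, which ATF4 is known to activate in other settings, had log2 differences of 0.23 (Phgdh), 0.08 (Psph) and 0.004 (Psat1) in knockout against wild-type MZB on this scale, beside 0.14 for Atf4 itself, and 0 of these 4 passed.

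Mitochondria charge their own transfer RNAs with a separate set of enzymes, except that Gars and Kars serve both compartments. Of 17 mitochondrial synthetase genes, 16 were higher per cell in MZB than in FoB in wild-type cells, as were 84.2% of all genes. On the rescaled values 5 were higher and 1 was lower, with a median of 0.03, beside 25.0% and 24.9% of all genes. Rars2 and Cars2 had rescaled log2 differences of 0.44 and 0.37 (limma adjusted p = 0.00148 and 0.00181). In knockout MZB against wild-type MZB, 1 of 17 rose per cell, Fars2, by 0.55 (limma adjusted p = 0.0447), and 1 fell on the rescaled values, Yars2, by 0.49 (limma adjusted p = 0.0293). Of all genes, 13.3% rose per cell in that MZB comparison, and 5.26% passed on the rescaled values. In FoB 0 of 17 passed on either scale, at backgrounds of 0.712% per cell and 0.588% rescaled.

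The 3 scaffold genes of the multisynthetase complex, Aimp1, Aimp2 and Eef1e1, were all higher per cell in MZB than in FoB in both genotypes (3 of 3 in each). So were 97.3% of all genes in knockout and 84.2% in wild-type cells. On the rescaled values 0 of 3 passed in any comparison, with medians of 0.16 in knockout and 0.03 in wild-type MZB against FoB. The genes that process or modify transfer RNAs numbered 23, of which 20 were higher per cell in MZB than in FoB in wild-type cells. On the rescaled values 4 were higher and 3 lower. The backgrounds in wild-type cells were 84.2% higher per cell, and 25.0% higher and 24.9% lower rescaled. Pus7, a pseudouridine synthase, and Tsen34, a splicing endonuclease subunit, had log2 differences of 0.48 and −0.43 (limma adjusted p = 0.0012 and 0.00112).

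Of 11 listed amino acid transporter genes, 7 were in the table. On the rescaled values, 4 of the 7 were lower and 1 was higher in MZB than in FoB of wild-type mice. Over all genes, 24.9% were lower and 25.0% higher. Slc38a2 and Slc38a1, neutral amino acid transporters, had log2 differences of −0.50 and −0.46, and Slc3a2, the heavy chain shared by several exchangers, of −0.66 (limma adjusted p = 0.000158, 0.000506 and 0.000426). Slc43a1, a transporter of large neutral amino acids, was higher by 0.81 (limma adjusted p = 0.000391). Of 10 mTORC1 pathway genes, 7 were lower, beside the same 24.9% of all genes, and 1 was higher, which was Rps6kb1 for S6 kinase. Tsc1 and Tsc2, the brake of the pathway, had log2 differences of −0.43 and −0.39 (limma adjusted p = 0.000739 and 0.00091). In knockout against wild-type cells, 0 of these 10 genes passed on either scale in either cell type. The backgrounds there ran from 0.588% to 14.0% of all genes.

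Integrated stress response genes, which surround ATF4, were mixed. Of 12 in the table, 3 were higher and 2 lower in MZB than in FoB of wild-type mice on the rescaled values, with a median of −0.08. In knockout cells 2 were higher and 4 lower. Of all genes, 25.0% were higher and 24.9% lower in wild-type cells, and 18.2% and 17.0% in knockout cells. Ppp1r15a, which brings the phosphatase to eIF2, had log2 differences of −0.51 in knockout and −0.73 in wild-type cells, and Eif2ak3, the kinase PERK, of −0.31 in knockout and −0.43 in wild-type cells (limma adjusted p between 0.000344 and 0.013). Sesn2, a leucine sensor, was higher by 0.69 in knockout and 0.63 in wild-type cells (limma adjusted p = 0.00598 and 0.00728). Per cell, Ddit4 and Atf5 rose in knockout MZB, by 0.76 and 0.59 (limma adjusted p = 0.00561 and 0.0245), beside 13.3% of all genes. On the rescaled values 0 of 12 passed there, beside 5.26% of all genes.

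Of 17 other amino acid and folate enzymes, 4 rose per cell in knockout MZB, where 13.3% of all genes rose per cell and 5.26% passed rescaled. Glul, which makes glutamine, also passed on the rescaled values, with 6.19 and 6.04 in knockout MZB, against 4.83, 4.94 and 4.76 in wild-type MZB (log2 difference 0.32, limma adjusted p = 0.043), and it was the only one of the 17 to do so. Between wild-type cell types it was lower in MZB by a rescaled log2 difference of −0.50, and the wild-type FoB libraries had 7.63 and 6.33, above those of knockout MZB. Tyms, the thymidylate enzyme that uses the folate units of Shmt1 and Mthfd1, was higher in MZB than in FoB by 1.28 in knockout and 0.84 in wild-type cells on the rescaled values (limma adjusted p = 4.27e-05 and 0.000638). Its values were low, at 0.731 in knockout MZB, 0.514 in wild-type MZB, 0.127 in knockout FoB and 0.154 in wild-type FoB on average, where the pseudocount shrinks a difference.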

How the data were processed

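mRNA was measured by poly(A) RNA-seq in sorted spleen B cells. The authors deposited a table of signal values, mRNA molecules per cell, for 10 libraries. Reads were aligned with STAR to mm10, per the submitters' processing notes; the sources used here do not name the counter, its use of strand, the annotation or the source of the per-cell factor. Per the labels' protocols, RNA came from a fixed number of sorted cells and the kit kept strand. After library factors were worked out, the fewest whole reads whose ratios matched a gene's values were searched for. They were found for 100.0% of genes (tolerance 0.1 reads, largest deviation 2.9e-05). The search took only near-whole matches, so the tolerance was met wherever a match was found.

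Values were tested as log2(value + 0.3) with limma 3.58.1 (R 4.3.3; intensity trend, all 10 libraries), two-sided, with Benjamini-Hochberg adjustment over 9690 genes and a threshold of 0.05. A fold change on this scale understates the change of low genes. A filter of at least 0.3 in 2 libraries removed 0 genes. Rescaled values were divided by a trimmed mean of log ratios (trims of 0.3 on ratios and 0.05 on levels; factors 0.625 to 1.76). Intervals are at 95%. The fit to rescaled values and the working back of reads were tested on simulated data, and the per-cell fit was not. Tables were made with Python 3.11.15, pandas 2.3.3 and numpy 2.4.6; 0 columns were unassigned.

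The members and lists were chosen with earlier results of these data known. All members were counted in every comparison; at most 10 per comparison and scale, by smallest p, were to be described singly, and at most 4 per other list. Members named beyond these, such as Wars, Phgdh, Mthfd1l, Vars and Atf4 per cell between wild-type cell types, were chosen after their values were seen. Alternatives were other pseudocounts and filters, compared groups alone, no trend, library weights, a replicate block, median scaling, limma voom on recovered reads, and leaving out each library. Differences between knockout and wild type and between cell types share libraries.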

Additional observations from a re-analysis of the deposited data

How the results depend on the processing

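No member that passed in the main fit changed direction under any alternative run. Members that passed only in an alternative kept their main direction there. Directions of the other members were not compared. The per-cell count in knockout against wild-type MZB, 1 of 30, was 0 with a pseudocount of 0.1, with the compared groups alone, with library weights and with a replicate block, 4 with a pseudocount of 1, and 0 to 10 when single libraries were left out. The rescaled count there, 0, was 1 with library weights and with limma voom (Dars). In knockout against wild-type FoB, 0 rescaled calls became 0 to 1 with single libraries left out. Between wild-type MZB and FoB, the 27 per-cell calls were 16 to 28 and the 11 rescaled calls 7 to 12 with single libraries left out, and the rescaled count was 17 with library weights. Between knockout MZB and FoB, the 30 per-cell calls were 29 to 30 and the 7 rescaled calls 4 to 9 with single libraries left out. The rescaled difference between knockout effects, 0 calls, was 1 with limma voom (Dars). Leaving out a library of a pair assumes that the remaining one varies like the other groups.

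Groups share replicate numbers, but same-numbered deviations from the group means correlated by only 0.205 and 0.16 in MZB and 0.046 and −0.061 in FoB, with 2 pairs each, so the numbers are not shown to pair libraries. With the replicate block, 8 genes passed between wild-type MZB and FoB on the rescaled values, against 11 without it. Members had 42 to 4210 reads per library, and the small number of libraries limits what a missed threshold shows.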
